A study of Mus musculus with 5 samples.

Results

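Transcripts of 9 antioxidant enzymes and of Txnip were described in single cells of mouse pancreatic islets. The genes were listed by name and not by their values: the glutathione peroxidases Gpx1, Gpx3 and Gpx4, the peroxiredoxins Prdx1, Prdx2 and Prdx4, the superoxide dismutase Sod1, the glutathione S-transferases Gstp1 and Gstm1, and Txnip. All 10 were among the 6631 genes shared by the deposited files. The study set islets of pregnant and postpartum C57BL/6 mice beside those of non-pregnant females. Viable islet cells were captured in droplets (inDrop), and polyadenylated RNA was counted through barcodes, unique molecular identifiers (UMIs), that mark single molecules. There were 2 postpartum libraries (postpartum 1 and postpartum 2), 2 pregnant libraries (pregnant 1 and pregnant 2) and 1 non-pregnant library. The labels used here give no allele, age, parity, day of gestation or day after birth, and no number of mice behind a library.

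Glutathione peroxidases and peroxiredoxins reduce hydrogen peroxide and lipid peroxides, drawing electrons from glutathione or from thioredoxin. Superoxide dismutases make the hydrogen peroxide that these enzymes remove, and glutathione S-transferases couple glutathione to reactive compounds. Txnip binds thioredoxin and restrains it, and its transcript is known to rise with glucose in insulin-producing cells. Beta cells are known for low levels of several hydrogen peroxide-removing enzymes.

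The libraries held 540, 1126, 1992, 163 and 842 cells in the order postpartum 1, postpartum 2, pregnant 1, pregnant 2 and non-pregnant. After leaving out 8 hormone transcripts, the shared genes had 53100, 257243, 587228, 9537 and 1303626 UMIs in that order. The non-pregnant library was deposited on another scale, with more features and at greater depth than the others, so these differences and the non-pregnant state cannot be told apart. Pregnant 2 stood apart. It had 15 UMIs of the 10 genes in all (7 of Gpx3, 7 of Prdx1 and 1 of Sod1), and its 7 Gpx3 UMIs were in a single cell, as were its 7 Prdx1 UMIs. Results that rest on it are given with and without it. Cells were classed by the largest of insulin (Ins1 plus Ins2), glucagon (Gcg), somatostatin (Sst) and pancreatic polypeptide (Ppy) UMIs, which gave 555 Gcg-led, 122 Sst-led, 105 Ppy-led and 3854 Ins-led cells of 4663, with 27 unclassed. Levels are counts per 1000000 (CPM), the UMIs of a gene over all non-hormone UMIs of the cells of a class. A UMI stands for 1 molecule whatever the transcript's length, so levels were not divided by length. Intervals and limits from counts cover counting error only. A limit from 0 is 3 UMIs of the class total and treats UMIs as independent. In pregnant 2 they were piled up, with 5.25 UMIs for each gene detected in an Ins-led cell, against 1.18 to 1.81 in the other libraries. Whether its UMIs were collapsed as in the others was not tested. For pregnant 2 the limit is therefore 3 such piles, which is 2309 CPM in its Ins-led and 13453 CPM in its Gcg-led cells, above most levels below. In Gcg-led cells the non-hormone alpha cell markers (7 of 8 measured) summed to 21900 to 68102 CPM, against 0 to 3306 CPM in Ins-led cells. The beta cell markers (9 of 12 measured) summed to 0 to 2218 CPM in Gcg-led cells, against 5099 to 12029 CPM in Ins-led cells. The ranges of the Gcg-led and Ins-led classes did not overlap in either list. In the rarer classes the markers did not bear out the class in every library. Delta cell markers (2 of 5 measured) had 2398 to 5652 CPM in Sst-led cells of postpartum 2, pregnant 1 and the non-pregnant library. In Sst-led cells of postpartum 1 they had 0 UMIs. These allow up to 1993 CPM, above the 1150 CPM of its Gcg-led cells, and do not order the classes. Gamma cell markers (2 of 5 measured) had 894 CPM in Ppy-led and 1332 CPM in Sst-led cells of postpartum 2 (5 and 10 UMIs). In the non-pregnant library they had 755 and 826 CPM (37 and 45 UMIs). These counts are too few to order the classes. Sst-led and Ppy-led therefore name the leading hormone only.

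Together the 10 genes took 0.362% and 0.343% of non-hormone UMIs in postpartum 1 and 2, 0.586% in pregnant 1, 0.157% in pregnant 2 and 0.462% in non-pregnant cells. In Ins-led cells, Prdx1 and Prdx2 varied least between the 4 deeper libraries, with the highest level 1.17 and 1.28 times the lowest. Gpx1, Sod1, Prdx4 and Gpx3 spanned 2.76-, 2.72-, 2.74- and 3.27-fold. Txnip spanned 5.38-fold, Gstm1 9.02-fold and Gpx4 101-fold, and Gstp1 had 0 UMIs in 1 of these libraries. In this class Prdx1 and Prdx2 were thus steady between libraries, while for Txnip, Gstm1, Gpx4 and Gstp1 1 or 2 libraries lay far from the others.

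**Figure D1:**
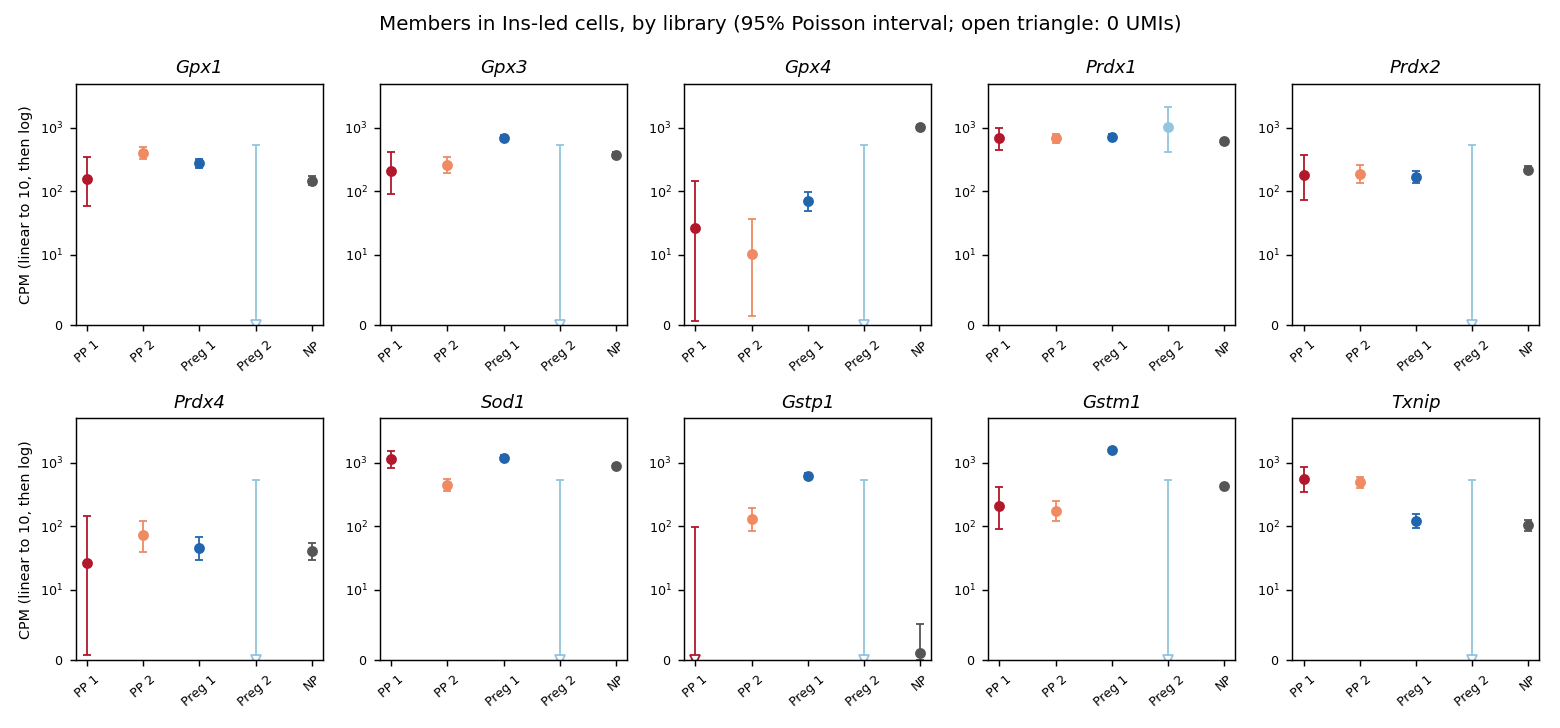
Levels of the 10 genes in Ins-led cells of each library, in CPM of non-hormone UMIs with 95% Poisson intervals; open triangles mark 0 UMIs. Prdx1 lies between 612 and 1027 CPM in all 5 libraries, while Txnip is at 494 and 553 CPM in the postpartum libraries and at 122 and 103 CPM in pregnant 1 and the non-pregnant library.

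Gpx3, the secreted plasma form of glutathione peroxidase (chr11:54902854-54910387, GRCm38.p6, protein-coding), had the largest class difference of the 9 members tested. In Gcg-led cells Gpx3 had 2793 CPM in postpartum 1, 3106 CPM in postpartum 2, 4363 CPM in pregnant 1, 5051 CPM in pregnant 2 and 5892 CPM in the non-pregnant library. In Ins-led cells it had 211, 263, 690, 0 and 376 CPM in the same order. By measured level every library was higher in its Gcg-led cells, and the lowest Gcg-led level was above the highest Ins-led level. Gpx3 ranked 25th, 19th, 9th, 64th and 5th of 6624 non-hormone genes in Gcg-led cells, in the order above.

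Within libraries the ratio of Gcg-led to Ins-led Gpx3 was 13.3 (95% exact interval 6.02 to 33.1) in postpartum 1 and 11.8 (8.56 to 16.6) in postpartum 2. It was 6.32 (5.22 to 7.64) in pregnant 1 and 15.7 (13.8 to 17.7) in the non-pregnant library. The interval of pregnant 1 lay below those of postpartum 2 and of the non-pregnant library. In pregnant 2 the 7 Gcg-led UMIs came from 1 of 23 cells and Ins-led cells had 0 UMIs, so no ratio is given.

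The log2 difference of Gpx3 between Gcg-led and Ins-led cells was 3.64 ± 0.52 (SE, 5 libraries paired by library), with an adjusted p of 0.0567 by limma, which missed the threshold of 0.05. Without pregnant 2 it was 3.13 ± 0.21 with a limma adjusted p of 1.61e-07. Differences are on the scale of log2(CPM + 100), which understates changes of low genes. By edgeR on the recovered UMIs of all 5 libraries the log2 difference of Gpx3 was 3.51 with an adjusted p of 8.66e-05 (134 of 2135 genes called, 6.28%). Limma called 9 of 2135 genes in this comparison (0.422%), all lower in Gcg-led cells, and 268 of 2401 (11.2%) without pregnant 2. DESeq2 called 139 (6.51%) and edgeR without pregnant 2 called 293 of 2401 (12.2%), Gpx3 among both. No other member passed in any of these 5 fits, and with all 5 libraries 1 of the 9 members tested had an unadjusted limma p under 0.05, as had 13.6% of all genes. The tenth member, Prdx4, was below the mean of 100 CPM required for testing. By measured level Gpx3 was the single tested member that was higher in Gcg-led cells of all 5 libraries, as were 1.45% of all genes tested. In pregnant 2 this order rests on 7 UMIs of a single cell, which do not place its classes. Whether the class difference of Gpx3 varied with state was tested as an interaction. The postpartum against pregnant term was -0.91 ± 1.22 for Gpx3 (limma adjusted p = 0.813), and the lowest adjusted p of any member over the 3 terms was 0.762. Limma called 0 of 2135 genes in this interaction test, and 0 of 2401 without pregnant 2.

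In each library Gpx3 was found in a larger share of Gcg-led than of Ins-led cells. In Gcg-led cells it was found in 30 of 119 (postpartum 1), 82 of 179 (postpartum 2), 86 of 141 (pregnant 1), 1 of 23 (pregnant 2) and 90 of 93 (non-pregnant). Among Ins-led cells it was found in 8 of 390, 42 of 896, 254 of 1772, 0 of 120 and 221 of 676. Median non-hormone UMIs per cell were 97, 248, 240, 53 and 1253 in Gcg-led cells and 89, 181, 245, 52 and 1320 in Ins-led cells. Within a library the depths differed most in postpartum 2, where Gcg-led cells were deeper.

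Droplets can hold free RNA, so Gpx3 was also set against the glucagon UMIs in the same cells. Per 1000 Gcg UMIs, Gcg-led cells had 2.25 and 2.76 Gpx3 UMIs in postpartum 1 and 2, 8.83 in pregnant 1 and 15.7 in non-pregnant cells. Ins-led cells had 12.9 and 8.0 in postpartum 1 and 2, 20.7 in pregnant 1 and 17.6 in non-pregnant cells. Ttr, an abundant alpha cell transcript, had 52.1, 57.9, 40.02 and 51.1 UMIs per 1000 Gcg UMIs in Gcg-led cells, against 92.1, 90.3, 56.6 and 71.5 in Ins-led cells. The Gpx3 ratio in Ins-led cells was thus above that of Gcg-led cells in each of these 4 libraries, by little in the non-pregnant one. How much of the Gpx3 in Ins-led cells was free RNA was not tested. In cells whose leading hormone made up at least 80% of the 4, Gpx3 had 2805, 3180, 5436, 5051 and 6447 CPM in Gcg-led cells and 194, 251, 636, 0 and 300.003 CPM in Ins-led cells.

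**Figure D2:**
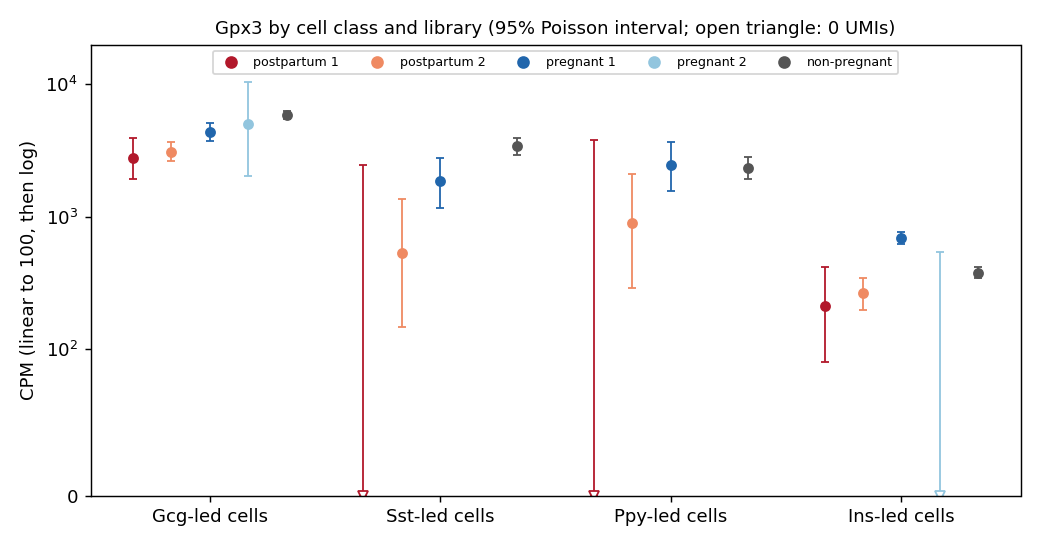
Gpx3 level by cell class and library, in CPM of non-hormone UMIs with 95% Poisson intervals; open triangles mark 0 UMIs. Gcg-led cells lie between 2793 and 5892 CPM and Ins-led cells at 690 CPM or less, with Sst-led and Ppy-led cells between them in 3 libraries, postpartum 2, pregnant 1 and non-pregnant.

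Gpx3 was also measured in the rarer classes, from which pregnant 2 was left out with under 10 cells. In Sst-led cells it had 0 CPM (0 UMIs in 15 cells, a limit of 1993 CPM) in postpartum 1, 533 CPM in postpartum 2, 1844 CPM in pregnant 1 and 3395 CPM in the non-pregnant library. In Ppy-led cells it had 0 CPM (a limit of 3102 CPM), 894, 2446 and 2346 CPM in that order. Over Ins-led cells these were 2.67-fold (1.65 to 4.11) and 3.55-fold (2.24 to 5.36) for Sst-led and Ppy-led cells of pregnant 1, and 9.02-fold (7.54 to 10.8) and 6.24-fold (5.02 to 7.69) in the non-pregnant library. Across libraries the log2 difference was 0.84 ± 0.57 in Sst-led cells (limma adjusted p = 0.632) and 0.97 ± 0.69 in Ppy-led cells (limma adjusted p = 0.666). Without postpartum 1, whose Sst-led and Ppy-led cells numbered 15 and 12, the limma differences were 1.66 ± 0.35 (adjusted p = 0.000246) and 1.83 ± 0.40 (adjusted p = 0.000731), where 3.43% and 2.24% of genes were called. Limma called 43 of 2545 genes in Sst-led cells (1.69%) and 27 of 2407 in Ppy-led cells (1.12%). None of the 9 members tested was called in either class by limma, by edgeR (2.71% and 1.74% of genes called) or by DESeq2 (2.08% and 1.66%), and 1 and 0 had an unadjusted limma p under 0.05, as had 10.3% and 8.85% of all genes.

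Gpx1, the widely expressed cytosolic glutathione peroxidase (chr9:108339080-108340342), was low and showed no common class order. In Gcg-led cells Gpx1 had 164 and 288 CPM in postpartum 1 and 2, 164 CPM in pregnant 1, 0 CPM in pregnant 2 and 239 CPM in the non-pregnant library. Ins-led cells had 158, 407, 279, 0 and 147 CPM in that order. Gcg-led cells were higher in 2 libraries and lower in 2. The ratio excluded 1 in the non-pregnant library alone, at 1.62 (1.05 to 2.42), and the log2 difference was -0.08 ± 0.20 (limma adjusted p = 0.804). Its highest level was in Sst-led cells of postpartum 2, with 1999 CPM (15 UMIs in 8 of 25 cells), 4.91 times the Ins-led level there (2.63 to 8.60). Sst-led cells of postpartum 1 had 1329 CPM from 2 UMIs, 8.41 times the Ins-led level with an interval of 0.830 to 47.03, while those of pregnant 1 and of the non-pregnant library had 252 and 239 CPM. In the 10 Sst-led cells of postpartum 2 with a leading hormone of at least 80%, Gpx1 had 2 UMIs (704 CPM), so most of the 15 UMIs were in cells with more mixed hormones. The class difference was 1.22 ± 0.59 with a limma adjusted p of 0.440.

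Gpx4, the selenoenzyme that reduces lipid hydroperoxides in membranes (chr10:80047166-80056439), separated the non-pregnant library from postpartum 1, postpartum 2 and pregnant 1. In Gcg-led cells Gpx4 had 0 UMIs in both postpartum libraries, 3 in pregnant 1 (81.8 CPM), 0 in pregnant 2 and 126 in non-pregnant cells (1040 CPM). In Ins-led cells it had 1 UMI in postpartum 1 (26.3 CPM), 2 in postpartum 2 (10.3 CPM), 37 in pregnant 1 (70.3 CPM), 0 in pregnant 2 and 1127 in non-pregnant cells (1045 CPM). The 0 UMIs of pregnant 2 allow up to 13453 CPM in Gcg-led and 2309 CPM in Ins-led cells. They do not place it against the non-pregnant library. Within the non-pregnant library the ratio to Ins-led cells was 0.995 (0.821 to 1.20) in Gcg-led, 0.826 (0.603 to 1.11) in Sst-led and 0.566 (0.378 to 0.818) in Ppy-led cells. The difference between libraries was far larger than counting error. As ratios to the non-pregnant level, Ins-led cells had 0.0252 (0.000638 to 0.141) in postpartum 1, 0.00986 (0.00119 to 0.0357) in postpartum 2 and 0.0673 (0.0472 to 0.0934) in pregnant 1. The log2 difference from non-pregnant was -3.28 ± 1.05 postpartum and -3.13 ± 1.05 in pregnancy (limma adjusted p = 0.404 and 0.642). Without pregnant 2 these were -3.28 ± 0.46 and -2.75 ± 0.53, with 1 pregnant and 1 non-pregnant library. Gpx4 reached the mean of 100 CPM required for testing through the non-pregnant library, so these differences are bound up with that filter. Gpx4 had 98.4% of the 50-base windows in the last 300 bases of its transcript in common with the pseudogene Gpx4-ps2 (GENCODE M21). How the authors' counting treated such reads is not given, and the non-pregnant file was made on another feature list, so Gpx4 levels are uncertain, and state and file cannot be told apart.

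Prdx1 and Prdx2 varied least between libraries in Ins-led cells, whereas in Gcg-led cells Prdx1 spanned 1.17-fold and Prdx2 4.65-fold over the 4 deeper libraries. Prdx1, an abundant cytosolic peroxiredoxin (chr4:116685599-116700000), had 493 and 494 CPM in Gcg-led cells of postpartum 1 and 2, 464 CPM in pregnant 1, 0 CPM in pregnant 2 and 545 CPM in the non-pregnant library. In Ins-led cells Prdx1 had 685, 690, 718, 1027 (7 UMIs, all in 1 cell) and 612 CPM in that order. By measured level it was lower in Gcg-led cells of all 5 libraries, as were 9.37% of all genes tested, but each single-library interval of the ratio included 1. In pregnant 2 this order sets 0 UMIs against 7 UMIs of 1 cell, which do not place its classes. The log2 difference was -0.998 ± 0.55 (limma adjusted p = 0.427). It takes the 0 UMIs of pregnant 2 as a low level. Without pregnant 2 the difference of Prdx1 was smaller and kept its sign. Between states its Ins-led level differed by 0.15 ± 1.40 postpartum and 0.43 ± 1.40 in pregnancy from non-pregnant (limma adjusted p = 1.00 and 0.907).

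Prdx2, the other cytosolic form (chr8:84969622-84974811), had 82.1 and 185 CPM in Gcg-led cells of postpartum 1 and 2, 382 CPM in pregnant 1, 0 CPM in pregnant 2 and 264 CPM in the non-pregnant library. Ins-led cells had 184, 191, 171, 0 and 220 CPM. The ratio of Gcg-led to Ins-led cells excluded 1 in pregnant 1 alone, at 2.23 (1.17 to 3.94). Prdx4, the form that works in the endoplasmic reticulum (chrX:155323918-155342272), was low in both classes, with 0 to 144 CPM in Gcg-led cells of the 4 deeper libraries and 26.3 to 72.1 CPM in their Ins-led cells. Its counts there were 0 to 8 UMIs in Gcg-led cells and 1 to 44 UMIs in Ins-led cells, too few to order the classes.

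Sod1, the copper-zinc superoxide dismutase of the cytosol (chr16:90220762-90226333), was among the higher members in both main classes. In Gcg-led cells Sod1 had 821 CPM in postpartum 1, 802 CPM in postpartum 2, 1118 CPM in pregnant 1, 722 CPM in pregnant 2 (1 UMI) and 685 CPM in the non-pregnant library. Ins-led cells had 1132, 443, 1203, 0 and 887 CPM in that order. The postpartum libraries differed by more than counting error in Ins-led cells and not in Gcg-led cells. The 0 UMIs in 120 Ins-led cells of pregnant 2 allow up to 2309 CPM and do not place it against the other libraries. The ratio of Gcg-led to Ins-led cells was 0.725 (0.325 to 1.47) in postpartum 1, 1.81 (1.21 to 2.67) in postpartum 2, 0.929 (0.660 to 1.27) in pregnant 1 and 0.772 (0.609 to 0.967) in the non-pregnant library. These ratios point both ways, and the log2 difference over libraries was 0.58 ± 0.58 (limma adjusted p = 0.584). This difference takes the 0 Ins-led UMIs of pregnant 2 as a low level, against 1 UMI in its Gcg-led cells. Of the other libraries only postpartum 2 was higher in Gcg-led cells, and without pregnant 2 the difference turned slightly negative. Of the Sod1 windows 18.3% matched another annotated gene.

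**Figure D3:**
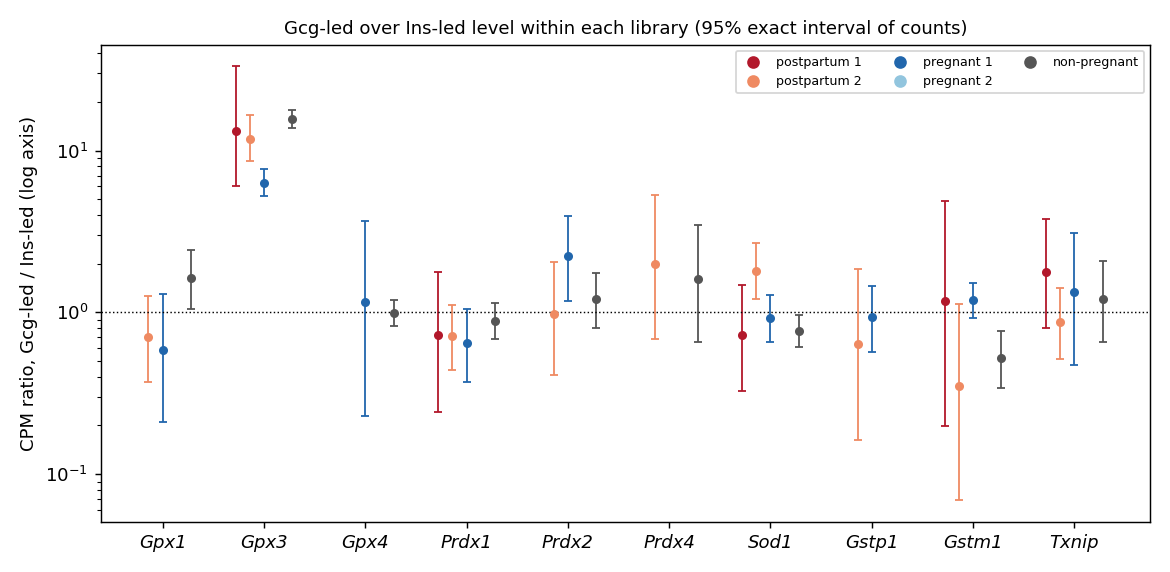
Ratio of the level in Gcg-led to that in Ins-led cells within each library (log axis, 95% exact intervals), for genes with at least 3 UMIs in both classes, a minimum no gene met in pregnant 2. Gpx3 lies at 6.32 or above in its 4 libraries, while the other genes lie between 0.352 and 2.23.

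The transferases were the members that set pregnant 1 apart. Gstm1, a mu-class glutathione S-transferase (chr3:108012250-108017973), had 246 and 61.7 CPM in Gcg-led cells of postpartum 1 and 2, 1881 CPM in pregnant 1, 0 CPM in pregnant 2 and 223 CPM in the non-pregnant library. In Ins-led cells Gstm1 had 211, 175, 1579, 0 and 428 CPM. The same library led in Sst-led cells, with 0, 133, 2934 and 624 CPM in postpartum 1, postpartum 2, pregnant 1 and non-pregnant, and in Ppy-led cells, with 0, 0, 2956 and 959 CPM. Pregnant 1 thus had the highest measured level in all 4 classes, and its 831 Ins-led UMIs were spread over 341 of 1772 cells with at most 13 in a cell. The 0 UMIs of pregnant 2, and those of postpartum 1 in Ppy-led cells (a limit of 3102 CPM), do not place these libraries below it.

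In Ins-led cells the Gstm1 ratio to pregnant 1 was 0.133 (0.0574 to 0.264) in postpartum 1 and 0.111 (0.0762 to 0.156) in postpartum 2, while pregnant 1 had 3.69 (3.29 to 4.14) times the non-pregnant level. Whether pregnant 2 shared the level of pregnant 1 was not detectable at its depth, since its 0 UMIs allow up to 2309 CPM. With both pregnant libraries the postpartum against pregnant log2 difference of Gstm1 was -0.49 ± 1.20 (limma adjusted p = 0.872). It was -2.52 ± 0.47 without pregnant 2 (limma adjusted p = 2.97e-05) and 1.55 ± 0.47 without pregnant 1 (limma adjusted p = 0.00189, with 82.8% of genes called), so its sign depended on which pregnant library was used. The pregnant against non-pregnant difference of Gstm1 without pregnant 2 was 1.67 ± 0.55 (limma adjusted p = 0.101) and 1.82 by edgeR (adjusted p = 0.0323).

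Gstp1, the pi-class transferase (chr19:4035411-4037912), had 0 UMIs in Gcg-led cells of postpartum 1, 4 in postpartum 2 (82.3 CPM), 21 in pregnant 1 (573 CPM), 0 in pregnant 2 and 1 in non-pregnant cells (8.25 CPM). In Ins-led cells it had 0 UMIs in postpartum 1, 25 in postpartum 2 (129 CPM), 324 in pregnant 1 (616 CPM), 0 in pregnant 2 and 1 in non-pregnant cells (0.927 CPM). Sst-led cells of pregnant 1 had 23 UMIs (1928 CPM), against 0 UMIs in those of the non-pregnant library. Pregnant 1 again had the highest measured level in all 4 classes, with 5 UMIs in Ppy-led cells. The 0 UMIs of postpartum 1 allow up to 1993 CPM in Sst-led and 3102 CPM in Ppy-led cells. Those of pregnant 2 allow up to 2309 CPM in Ins-led and 13453 CPM in Gcg-led cells. These limits lie above the levels of pregnant 1, so in these classes the 0 UMIs do not place those libraries below it. In Ins-led cells postpartum 1 was at least 7.79-fold lower than pregnant 1, and the ratio of postpartum 2 to pregnant 1 was 0.209 (0.133 to 0.314). Without pregnant 2 a single pregnant library stands against a single non-pregnant one. The spread in the Ins-led state fit then comes from the 2 postpartum libraries alone (1 residual degree of freedom), through a trend over genes of like level. In that fit the log2 difference of Gstp1 was -2.24 ± 0.50 postpartum against pregnant and 2.83 ± 0.57 pregnant against non-pregnant. Gstp1 reached the mean of 100 CPM required for testing through pregnant 1, so these differences are bound up with that filter. With pregnant 2 kept they were -0.82 ± 0.79 and 1.41 ± 0.97 (limma adjusted p = 0.831 and 0.899). All 50-base windows in the last 300 bases of Gstp1 also occur in Gstp2. In the non-pregnant file Gstp2 had 0 UMIs and Gstp3 had 1, and in the other libraries both were not analysed here. Gstp1 levels are therefore uncertain, although the 4 pregnant and postpartum files share 1 feature list.

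Ductal markers, of which 4 of 8 were measured, summed to 711 and 1040 CPM in Ins-led cells of postpartum 1 and 2, 1559 CPM in pregnant 1, 440 CPM in pregnant 2 and 1635 CPM in the non-pregnant library. Of the 4, 1 was at 0 in postpartum 1, and 2 of them in pregnant 2. Their part in the transferase levels was not tested.

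Txnip, the thioredoxin-binding arrestin-family protein (chr3:96557957-96561857), was the member set apart in the postpartum libraries. In Gcg-led cells Txnip had 986 CPM in postpartum 1 and 432 CPM in postpartum 2, against 164 CPM in pregnant 1, 0 CPM in pregnant 2 and 124 CPM in the non-pregnant library. In Ins-led cells it had 553 CPM in postpartum 1 and 494 CPM in postpartum 2, against 122 CPM in pregnant 1, 0 CPM in pregnant 2 and 103 CPM in the non-pregnant library. Both postpartum libraries were above pregnant 1 and the non-pregnant library in both classes. The limits of pregnant 2, 13453 CPM in Gcg-led and 2309 CPM in Ins-led cells, lay above every postpartum level, so its 0 UMIs do not place it. The promoter window of Txnip is shown because Txnip was the single member with a match to the carbohydrate response element, the glucose-linked motif searched here. It covers chr3:96557707-96558006 on the plus strand of GRCm38.p6, 250 bases before to 50 after the RefSeq start, with the match in capitals at base -85.
Txnip promoter: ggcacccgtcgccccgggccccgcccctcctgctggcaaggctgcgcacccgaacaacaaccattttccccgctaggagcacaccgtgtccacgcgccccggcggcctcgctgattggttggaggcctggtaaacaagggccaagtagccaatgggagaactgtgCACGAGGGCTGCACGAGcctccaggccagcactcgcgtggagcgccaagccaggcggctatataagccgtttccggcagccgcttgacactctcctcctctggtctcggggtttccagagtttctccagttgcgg

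The match, CACGNG followed after 5 bases by CACGNG and searched on both strands, was found in 16 of 32851 promoter windows of the same length (0.0487%). Of the other members, Prdx1 and Sod1 had a match to the antioxidant response element TGACNNNGC, found in 12.4% of windows, on the minus strand at base -133 and at base -56. On the plus strand of the window these read GCTGAGTCA in Prdx1 and GCGTGGTCA in Sod1. Prdx4 had an E box, CACGTG, which 7.15% of windows hold, at base -52. No member held the STAT site TTCNNNGAA, present in 8.30% of windows. Gpx1, Gpx3, Gpx4, Prdx2, Gstp1 and Gstm1 had none of the 4 motifs in this window.

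Against the non-pregnant library the Ins-led Txnip ratio was 5.38 (3.20 to 8.63) in postpartum 1, 4.80 (3.62 to 6.37) in postpartum 2 and 1.18 (0.855 to 1.62) in pregnant 1. Against pregnant 1, postpartum 1 had a ratio of 4.55 (2.64 to 7.54) and postpartum 2 one of 4.06 (2.93 to 5.67). In Gcg-led cells postpartum 1 had 7.96 (3.40 to 18.2) and postpartum 2 had 3.49 (1.71 to 7.28) times the non-pregnant level. Against pregnant 1 the Gcg-led ratios were 6.03 (2.09 to 19.6) and 2.64 (1.03 to 8.0). All of these intervals of the postpartum libraries excluded 1, while that of pregnant 1 against non-pregnant included it. The 96 UMIs of postpartum 2 were spread over 76 of 896 Ins-led cells with at most 3 in a cell.

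**Figure D4:**
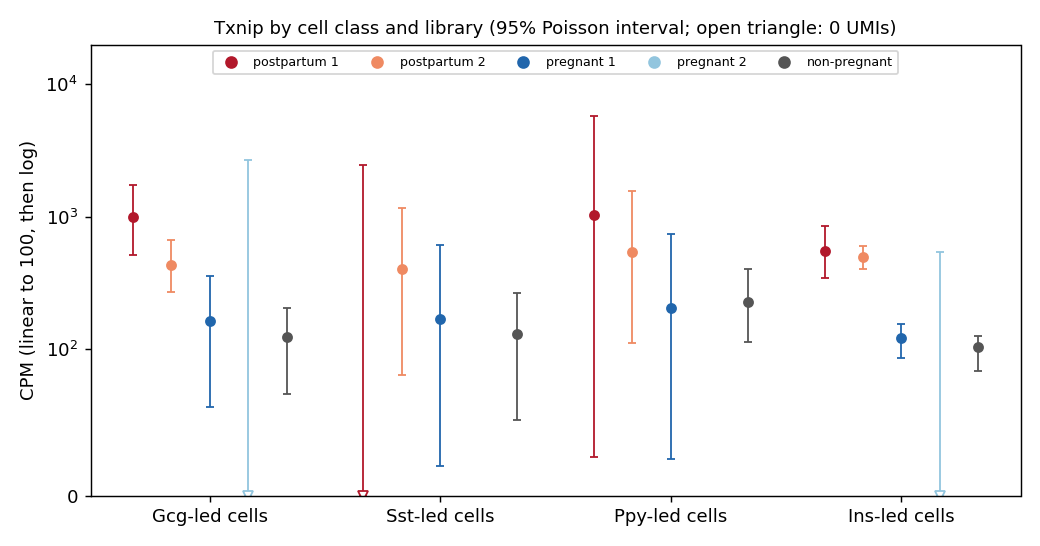
Txnip level by cell class and library, in CPM of non-hormone UMIs with 95% Poisson intervals; open triangles mark 0 UMIs. In Gcg-led and Ins-led cells both postpartum libraries lie at 432 to 986 CPM, above pregnant 1 and the non-pregnant library at 103 to 164 CPM.

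Over libraries the Ins-led log2 difference of Txnip was 1.62 ± 1.34 postpartum against non-pregnant and 2.07 ± 1.09 postpartum against pregnant (limma adjusted p = 1.00 and 0.831). Without pregnant 2 they were 1.62 ± 0.46 and 1.49 ± 0.46 (limma adjusted p = 0.0106 and 0.0501), and edgeR gave 2.31 and 2.13 (adjusted p = 0.00177 and 0.0116). With pregnant 1 left out and pregnant 2 kept they were 1.62 ± 0.47 and 2.64 ± 0.47 (limma adjusted p = 0.0102 and 1.13e-07). That fit called 7.37% and 82.8% of all genes in these comparisons, and the Txnip calls are read against those shares. The pregnant against non-pregnant difference was 0.13 ± 0.53 without pregnant 2 (limma adjusted p = 1.00). In Gcg-led cells without pregnant 2 the postpartum differences were 1.76 ± 0.67 against non-pregnant and 1.53 ± 0.67 against pregnant (limma adjusted p = 0.609 and 0.598). These comparisons share the same postpartum libraries, and those against non-pregnant share its single library. Txnip was higher in both postpartum libraries than in non-pregnant Ins-led cells, as were 36.0% of all genes tested. By measured level it was also higher than in both pregnant libraries, as were 25.2%. This last order and the difference of 2.64 ± 0.47 take the 0 UMIs of pregnant 2 as a low level, though these UMIs do not place it. In the fits that keep pregnant 2, Txnip reached the mean of 100 CPM required for testing through the postpartum libraries. The Txnip differences of those fits are bound up with that filter. In Ppy-led cells it had 1034 CPM (1 UMI) and 537 CPM in postpartum 1 and 2, 204 CPM in pregnant 1 and 224 CPM in the non-pregnant library. In Sst-led cells the levels were 0 CPM, 400 CPM (3 UMIs, all in 1 cell), 168 CPM and 128 CPM. Dissociation stress transcripts, 12 of 12 measured, moved with the same libraries. They summed to 23783 and 25431 CPM in Ins-led cells of postpartum 1 and 2, 6420 CPM in pregnant 1, 8215 CPM in pregnant 2 and 2788 CPM in the non-pregnant library, with 8 of 12 at 0 in pregnant 2 and none elsewhere. Their part in the Txnip difference was not tested.

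Counted over all members, the state comparisons gave no call with all 5 libraries. In Ins-led cells limma called 3 of 2191 genes in pregnant against non-pregnant (0.137%), 7 in postpartum against non-pregnant (0.319%) and 2 in postpartum against pregnant (0.0913%), and 0 of 9 members in each. At an unadjusted p under 0.05 there were 1, 1 and 0 members, the single one being Gpx4, beside 1.92%, 1.83% and 3.83% of all genes. Of all genes edgeR called 0%, 0% and 0.0456% and DESeq2 0.228%, 0.456% and 0.228%, with no member among them. In Gcg-led cells limma called 0, 4 and 1 of 1856 genes (0%, 0.216% and 0.0539%) in the same order and 0 of 9 members, with 14, 20 and 32 genes at an unadjusted p under 0.05 (0.754%, 1.08% and 1.72%). Of the members, 1, 1 and 0 were under that unadjusted p, and edgeR and DESeq2 called 0 genes of any kind in each. Without pregnant 2 limma called 45, 155 and 62 of 2457 genes in Ins-led cells (1.83%, 6.31% and 2.52%). Members called were Gpx4 and Gstp1, Gpx4 and Txnip, and Gstm1 and Gstp1 in that order. With pregnant 1 left out instead, 74.8% of genes were called in pregnant against non-pregnant, and 6 of the members were among them, all lower. edgeR called 4.15%, 11.4% and 5.33% of genes without pregnant 2, and of the members Gpx4, Gstm1 and Gstp1, then Gpx4, Gstp1 and Txnip, then Gstm1, Gstp1 and Txnip. Gpx4 passed the filter on low values through the non-pregnant library and Gstp1 through pregnant 1, so their differences are bound up with that filter. With pregnant 2 kept, the same holds for Txnip through the postpartum libraries. In Gcg-led cells without pregnant 2 limma called 0 of 2306 genes in each comparison, while edgeR called 30, 117 and 29 (1.3%, 5.07% and 1.26%), among them Gpx4, Gstm1 and Gstp1, then Gpx4, then Gstm1.

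The median log2 difference of the 9 members in Ins-led cells was -0.45 in pregnant against non-pregnant, -0.15 in postpartum against non-pregnant and 0.26 in postpartum against pregnant. Over all genes the medians were -0.57, -0.02 and 0.55, and without pregnant 2 they were 0.02, -0.00 and -0.03. The members' medians without pregnant 2 were 0.40, -0.15 and -0.53. With all libraries 2, 4 and 5 of the 9 members were higher in the 3 comparisons, as were 597, 1071 and 1562 of 2191 genes. Without pregnant 2, 7, 4 and 2 of the 9 were higher, as were 1281, 1221 and 1179 of 2457 genes.

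Other genes of these pathways were taken from 6 lists. In Gcg-led against Ins-led cells 5 glutathione genes, 10 thioredoxin and peroxiredoxin genes, 2 superoxide genes, 9 targets of Nrf2 (the factor that drives many antioxidant genes) and 7 selenoprotein genes were tested. None of them passed by limma, with median log2 differences of -0.10, -0.21, -0.44, -0.33 and -0.79 beside -0.19 over all genes. Without pregnant 2 limma called 1 of 10 Nrf2 targets, Ftl1 (-0.998 ± 0.20, adjusted p = 0.00453), and 1 of 8 selenoprotein genes, Selenos (-0.74 ± 0.22, adjusted p = 0.0388), both lower in Gcg-led cells. Of 2 glucose-response genes 1 was called with all libraries. Without pregnant 2, 2 of 3 were, G6pc2 and the glucose transporter Slc2a2 (-1.75 ± 0.26, limma adjusted p = 0.000358). G6pc2, the islet glucose-6-phosphatase catalytic subunit, fell in Gcg-led cells with a log2 difference of -3.67 ± 0.39 (limma adjusted p = 0.0413). It had 246, 61.7, 218, 0 and 90.8 CPM in Gcg-led cells, against 3029, 2636, 2178, 2934 and 1818 CPM in Ins-led cells. G6pc2 also fell in Sst-led cells (-4.35 ± 0.58, limma adjusted p = 1.14e-10) and in Ppy-led cells (-4.25 ± 0.70, limma adjusted p = 5.02e-07). Selenop, a secreted selenium carrier, fell in Sst-led cells (-1.97 ± 0.57, limma adjusted p = 0.0357), 1 of 8 selenoprotein genes tested there.

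Between states no gene of these lists was called by limma with all libraries. Without pregnant 2, with 1 pregnant and 1 non-pregnant library, Ftl1, the ferritin light chain that stores iron and a known Nrf2 target, was called higher in Ins-led cells in pregnant against non-pregnant (2.74 ± 0.47, limma adjusted p = 1.26e-06). It was called lower in postpartum against pregnant (-1.99 ± 0.40, limma adjusted p = 0.000139). Ftl1 had 411 and 494 CPM in Gcg-led cells of postpartum 1 and 2, 3899 CPM in pregnant 1, 5051 CPM in pregnant 2 (7 UMIs) and 314 CPM in the non-pregnant library. Ins-led cells had 1185, 1328, 5282, 6454 (44 UMIs) and 707 CPM. Pregnant 1 thus lay above the postpartum and non-pregnant libraries in both classes, and pregnant 2 did so in Ins-led cells. In Gcg-led cells of pregnant 2 there were 6.22 UMIs for each gene detected in a cell. Its 7 Ftl1 UMIs there do not place it. Of the Ftl1 windows 65.7% matched other annotated genes, 11 in number and Ftl1-ps1 most often, so its level is uncertain. Idh1, which makes cytosolic NADPH, was called lower in postpartum Ins-led cells against non-pregnant (-1.48 ± 0.50) and against pregnant (-1.61 ± 0.50) without pregnant 2. It had 0 and 36.0 CPM in postpartum 1 and 2, 257 CPM in pregnant 1, 293 CPM in pregnant 2 (2 UMIs) and 225 CPM in the non-pregnant library. Idh1 reached the mean of 100 CPM required for testing through pregnant 1 and the non-pregnant library, so these differences are bound up with that filter. Of 10 Nrf2 targets tested without pregnant 2, 1, 1 and 2 were called in the 3 comparisons, in the order above.

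Across 18 sums of a class in a library, which share libraries and depth, the levels of Gpx3 and Sod1 had a Pearson r of 0.757 and those of Gstp1 and Gstm1 one of 0.668 on log2(CPM + 100). Of 2393 genes, those among the most like Gpx3 included Rpl7 (0.856) and Rps10 (0.839). The most like Sod1 were Tram1 (0.854), Rab2a (0.852) and Rps10 (0.838), and the most like Gstm1 were Lrrc8d (0.903), Rab1b (0.883) and Ctsl (0.878). These values describe the 18 sums, of which few are independent.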

How the data were processed

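Levels were measured in 5 inDrop libraries. Per the submitters' processing notes, Partek 8.0 and Bowtie 1.1.1 and the builds GRCm38 and mm10 were used; their roles, the annotation and the cell filters are not stated there. In the deposited non-pregnant file the values are a linear signal, each cell scaled by the authors to 1 total. The other 4 deposited files hold log2 of counts per 1000000 plus 1, computed by the authors. Whole reads recovered from the steps of each cell gave UMIs, with 100% of values within 0.1 of a whole number. No column was of another sample (0). Genes were matched by symbol (6543) or synonym (88). Scrublet in scanpy 1.11.5 marked 24 doublets (17, 0, 1, 1 and 5 in the order postpartum 1, postpartum 2, pregnant 1, pregnant 2, non-pregnant), few for libraries of this size, and these were removed. Cells are numbered columns, so cell barcodes shared between libraries could not be counted.

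Non-hormone UMIs were summed per library and class with at least 10 cells and turned into CPM. Log2(CPM + 100) was tested with limma 3.58.1 (R 4.3.3) on genes averaging 100 CPM or more, with library as a block for class comparisons and state as the group otherwise, two-sided, Benjamini-Hochberg adjusted over all genes tested, threshold 0.05. edgeR 4.0.16 (quasi-likelihood) and DESeq2 1.42.0 on recovered UMIs were alternatives, because the deposited values are normalized. A lone library of a state (non-pregnant always, pregnant 1 without pregnant 2) was assumed to vary like the others. Nothing says that libraries came from separate animals, so p-values measure only the spread between libraries. In the Ins-led state fits and the Sst-led and Ppy-led fits, limma took this spread wholly from a trend over genes of like level. The same holds for the Gcg-led state fits with all libraries. The ± values and limma p-values of these fits therefore do not measure the spread of the single gene. Intervals are 95%, Poisson for levels and exact binomial for ratios of counts. The fits were tested on simulated data of independent counts. Those data did not hold the piled UMIs of pregnant 2, so the test does not cover that library. Members and lists were chosen with earlier results of these data known. In the text all 10 members are named, and of each list up to 4 genes that passed; the fits without pregnant 2 with edgeR or with purer cells and the interaction were chosen after seeing the data. Promoter and gene positions are RefSeq's (GRCm38.p6), and all 10 members matched.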

Additional observations from a re-analysis of the deposited data

Results flagged for a closer look

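Genes of the 6 pathway lists that only the non-pregnant file holds were outside the comparisons and had signal above the limit of a count of 0. Their summed levels over all non-pregnant cells were 192 CPM for glutathione genes, 216 CPM for thioredoxin and peroxiredoxin genes, 15.3 CPM for superoxide and catalase genes, 398 CPM for Nrf2 targets, 73.6 CPM for selenoprotein genes and 169 CPM for glucose-response genes. These sums are over the 36 of 43 such genes that had more than 3 UMIs, the limit used. Catalase (Cat), which breaks down hydrogen peroxide, had 15 UMIs (11.5 CPM), Akr1b3 had 231 CPM, Sesn2 138 CPM and Hmox2 96.7 CPM. They were not analysed in the other 4 libraries.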

How the results depend on the processing

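Of the single-member results under the alternatives, 1147 kept direction and call, 58 kept direction and gained a call, and 144 changed sign. Of those 144, 142 were called in neither fit. The other 2 were Gstm1 in Ins-led cells, at 1.55 in postpartum against pregnant without pregnant 1 (range over libraries left out, -2.52 to 1.55) and 1.82 in pregnant against non-pregnant by edgeR without pregnant 2. Pregnant 2, at 9537 non-hormone UMIs, limits what the state comparisons can show.

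Counts of genes called follow in the order Gcg-led, Sst-led and Ppy-led against Ins-led cells, then pregnant against non-pregnant, postpartum against non-pregnant and postpartum against pregnant in Ins-led cells, then these 3 in Gcg-led cells. The counts in the report were 9, 43, 27, 3, 7, 2, 0, 4 and 1. With a mean over cells they were 5, 41, 27, 3, 7, 3, 0, 1 and 1. With all UMIs as denominator they were 9, 40, 32, 1, 1, 0, 0, 1 and 2. A pseudocount of 10 gave 0, 30, 15, 2, 3, 3, 1, 3 and 3, and no filter on low values 6, 376, 403, 5, 7, 6, 149, 149 and 0. Cells with a leading hormone of at least 80% gave 13, 20, 22, 3, 7, 2, 0, 3 and 1, and with pregnant 2 also left out 274, 20, 22, 47, 145, 62, 1, 6 and 1. Doublets kept gave 12, 43, 28, 3, 7, 2, 2, 4 and 1, and cells of at least 200 UMIs 216, 83, 55, 41, 125, 38, 4, 21 and 10. edgeR gave 134, 69, 42, 0, 0, 1, 0, 0 and 0, and 293, 69, 42, 102, 280, 131, 30, 117 and 29 without pregnant 2. DESeq2 gave 139, 53, 40, 5, 10, 5, 0, 0 and 0, and TMM scaling 16, 134, 100, 0, 1, 1, 0, 0 and 1. Leaving out each library in turn gave 0 to 268, 14 to 87, 9 to 56, 1 to 1564, 2 to 155, 1 to 1730, 0 to 0, 0 to 1 and 0 to 2. The highest counts, 1564 and 1730, came without pregnant 1, where pregnant 2 stands alone for pregnancy and 74.8% and 82.8% of genes were called. There limma called Gpx1, Gpx3, Gpx4, Gstm1, Prdx2 and Sod1 lower than non-pregnant (-1.31, -2.25, -3.52, -2.40, -1.68 and -3.30), beside a median of -1.26 over all genes. The 155 of postpartum against non-pregnant and the 268 of Gcg-led against Ins-led cells came without pregnant 2. The cause of these changes was not tested.

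The replicate numbers do not pair the samples: same-numbered pregnant and postpartum libraries had deviations correlated at 0.019 in Ins-led and -0.039 in Gcg-led cells. With the replicate block postpartum against pregnant gave 1 call in Ins-led and 4 in Gcg-led cells. With library left out of the class fits, so that classes were not paired within a library, the class comparisons gave 16, 27 and 13.

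Log2 differences of members whose sign differed from the report are given next by comparison.

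In Gcg-led against Ins-led cells, Gpx1 was 0.14 in cells of at least 200 UMIs, 0.017 by edgeR without pregnant 2 and -0.22 to 0.026 with single libraries left out. Gpx4 was 0.0072 with all UMIs as denominator, 0.022 by DESeq2 and 0.039 by edgeR without pregnant 2. Gstp1 was 0.0097 with a pseudocount of 10, 0.20 by DESeq2 and -0.10 to 0.0028 with single libraries left out. Prdx2 was -0.038 with a mean over cells, -0.16 at a hormone share of 80%, -0.20 at a hormone share of 80% without pregnant 2 and -0.12 to 0.25 with single libraries left out. Sod1 was -0.0079 at a hormone share of 80% without pregnant 2 and -0.029 to 0.84 with single libraries left out.

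In Sst-led against Ins-led cells, Gstm1 was 0.32 with all UMIs as denominator, 0.13 at a hormone share of 80%, 0.37 in cells of at least 200 UMIs, 0.17 by edgeR, 0.015 by DESeq2, 0.17 by edgeR without pregnant 2, 0.13 at a hormone share of 80% without pregnant 2 and -0.47 to 0.36 with single libraries left out. Prdx1 was 0.026 at a hormone share of 80% and 0.026 at a hormone share of 80% without pregnant 2. Prdx2 was 0.18 with all UMIs as denominator, 0.23 in cells of at least 200 UMIs and -0.55 to 0.22 with single libraries left out. Sod1 was 0.11 in cells of at least 200 UMIs and -1.26 to 0.093 with single libraries left out. Txnip was 0.075 in cells of at least 200 UMIs and -0.93 to 0.065 with single libraries left out.

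In Ppy-led against Ins-led cells, Gstm1 was 0.039 with all UMIs as denominator, 0.15 in cells of at least 200 UMIs, 0.27 by edgeR, 0.27 by edgeR without pregnant 2 and -0.74 to 0.14 with single libraries left out. Gstp1 was -0.37 at a hormone share of 80%, -0.071 with doublets kept, -0.52 by edgeR, -0.18 with TMM scaling, -0.52 by edgeR without pregnant 2, -0.37 at a hormone share of 80% without pregnant 2 and -0.082 to 0.018 with single libraries left out. Prdx1 was 0.30 in cells of at least 200 UMIs and -0.99 to 0.28 with single libraries left out. Txnip was -0.0094 by DESeq2 and -0.20 with TMM scaling.

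In pregnant against non-pregnant within Ins-led cells, Gpx1 was 0.62 in cells of at least 200 UMIs, 0.068 by edgeR, 0.19 by DESeq2, 0.86 by edgeR without pregnant 2, 0.63 at a hormone share of 80% without pregnant 2 and -1.31 to 0.62 with single libraries left out. Gpx3 was 0.74 in cells of at least 200 UMIs, 0.82 by edgeR without pregnant 2, 0.88 at a hormone share of 80% without pregnant 2 and -2.25 to 0.73 with single libraries left out. Gstm1 was 1.66 in cells of at least 200 UMIs, 0.88 by edgeR, 0.89 by DESeq2, 1.82 by edgeR without pregnant 2, 1.66 at a hormone share of 80% without pregnant 2 and -2.40 to 1.67 with single libraries left out. Prdx1 was -1.23 at a hormone share of 80%, -0.27 by edgeR and -0.34 with TMM scaling. Sod1 was 0.41 in cells of at least 200 UMIs, 0.38 by edgeR without pregnant 2, 0.48 at a hormone share of 80% without pregnant 2 and -3.30 to 0.40 with single libraries left out. Txnip was 0.13 in cells of at least 200 UMIs, 0.18 by edgeR without pregnant 2, 0.16 at a hormone share of 80% without pregnant 2 and -1.02 to 0.13 with single libraries left out.

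In postpartum against non-pregnant within Ins-led cells, Gstp1 was -0.013 to 1.18 with single libraries left out. Prdx1 was -0.41 with all UMIs as denominator. Sod1 was -0.86 to 0.32 with single libraries left out.

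In postpartum against pregnant within Ins-led cells, Gpx1 was -0.38 in cells of at least 200 UMIs, -0.049 at a hormone share of 80% without pregnant 2 and -0.069 to 1.85 with single libraries left out. Gpx3 was -0.22 with all UMIs as denominator, -1.31 in cells of at least 200 UMIs, -0.59 by edgeR, -0.64 by DESeq2, -1.44 by edgeR without pregnant 2, -1.20 at a hormone share of 80% without pregnant 2 and -1.23 to 1.75 with single libraries left out. Gpx4 was -0.53 to 0.24 with single libraries left out. Gstm1 was 0.68 with a pseudocount of 10 and -2.52 to 1.55 with single libraries left out. Prdx1 was 0.019 with a mean over cells, 1.41 at a hormone share of 80%, 0.42 by edgeR, 0.16 by DESeq2 and 0.48 with TMM scaling. Prdx2 was -0.0023 in cells of at least 200 UMIs. Sod1 was -0.70 in cells of at least 200 UMIs, -0.70 by edgeR without pregnant 2, -0.75 at a hormone share of 80% without pregnant 2 and -0.67 to 3.03 with single libraries left out.

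In pregnant against non-pregnant within Gcg-led cells, Gpx3 was 0.21 with a mean over cells. Gstm1 was -0.76 with a pseudocount of 10 and -1.69 to 2.62 with single libraries left out. Prdx2 was 0.42 in cells of at least 200 UMIs, 0.44 by edgeR without pregnant 2, 0.51 at a hormone share of 80% without pregnant 2 and -1.86 to 0.40 with single libraries left out. Sod1 was -0.44 with a mean over cells, -0.28 by edgeR, -0.23 by DESeq2 and -1.001 with TMM scaling. Txnip was 0.25 in cells of at least 200 UMIs, 0.31 by edgeR without pregnant 2 and -1.16 to 0.24 with single libraries left out.

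In postpartum against non-pregnant within Gcg-led cells, Gpx1 was 0.10 in cells of at least 200 UMIs, 0.064 by edgeR without pregnant 2 and -0.36 to 0.19 with single libraries left out. Gstm1 was 0.16 at a hormone share of 80%, 0.16 at a hormone share of 80% without pregnant 2 and -0.997 to 0.10 with single libraries left out. Gstp1 was -0.11 to 0.75 with single libraries left out. Sod1 was -0.025 with a mean over cells and -0.32 with all UMIs as denominator.

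In postpartum against pregnant within Gcg-led cells, Gpx3 was 0.33 by edgeR, 0.26 by DESeq2 and 0.97 with TMM scaling. Gstm1 was -3.07 to 1.24 with single libraries left out. Prdx2 was -0.21 with a mean over cells, -0.21 with all UMIs as denominator, -0.64 at a hormone share of 80%, -0.95 in cells of at least 200 UMIs, -0.45 by edgeR, -0.54 by DESeq2, -1.18 by edgeR without pregnant 2, -1.86 at a hormone share of 80% without pregnant 2 and -1.08 to 1.19 with single libraries left out. Sod1 was 0.41 with a mean over cells, 0.47 by edgeR, 0.41 by DESeq2, 1.17 with TMM scaling and -0.42 to 0.15 with single libraries left out.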
